A study of Homo sapiens with 7 samples.

Results

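The genes described here are nuclear genes of the oxidative phosphorylation system, mostly for its subunits. They were counted in leukemia cells with and without knockdown of the RNA-binding protein RBM15. Members were taken by symbol: protein-coding nuclear genes that start with NDUFA, NDUFB, NDUFC, NDUFS, NDUFV, UQCR, COX4 to COX8 or ATP5, and SDHA to SDHD, with the NDUFAF assembly factors and pseudogenes left out. The rule found 90 genes, of which 89 had exon bins in the count files, out of 62238 genes with exon bins and 19237 protein-coding genes. The gene without bins was the read-through gene NDUFC2-KCTD14. By complex there were 39 genes of complex I, 4 of complex II, 9 of complex III, 17 of complex IV and 20 of complex V.

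The respiratory chain sits in the inner mitochondrial membrane and passes electrons from NADH and succinate to oxygen. Complexes I, III and IV pump protons as they do so, complex II feeds in electrons from the citric acid cycle without pumping, and complex V, the ATP synthase, lets the protons return and makes ATP. Most subunits are nuclear genes translated in the cytosol and imported, whereas a core set is encoded in the mitochondrial genome, so the assembly of complexes I, III, IV and V draws on both genomes.

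The study used MEG-01, a human leukemia cell line of megakaryoblastic origin. RNA-seq was made for 3 libraries without strand information. The control is 1 library of cells with no knockdown in its labels, and the other libraries are 2 stable lines with RBM15 knocked down, replicate 1 by shRBM15#1 and replicate 2 by shRBM15#2. RNA immunoprecipitation followed by sequencing (RIP-seq) was made for 4 strand-specific libraries, labelled with a normal immunoglobulin or an RBM15 antibody. All libraries, the control included, are labelled as carrying lentiviral transgenes, at passage 5, in RPMI-1640 medium with fetal bovine serum, harvested in the exponential phase. No control shRNA is named in the labels. The target sequences of the shRNAs, in capitals because every base matches the genome, each lie in coding exon sequence of RBM15 on the plus strand of GRCh37, at chr1:110882526-110882545 for shRBM15#1 and chr1:110884588-110884607 for shRBM15#2.
shRBM15#1: GCGGAATACAAGACTCTGAA
shRBM15#2: CCAATGGTTATGCCATTCTT

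Reads on exon bins numbered 53230029 in the control, 41629454 in knockdown replicate 1 and 52458857 in knockdown replicate 2. For the same gene across libraries, values are normalized counts (CPM, reads scaled to a common library size with trimmed mean of M values, or TMM, factors). Different genes are compared by level per length, the CPM without TMM factors divided by the kilobases of a gene's exon bins. Changes are log2 ratios of knockdown to control with a standard error (SE) from the edgeR quasi-likelihood fit, and a gene was called at an adjusted p under 0.01 over all tested genes. Both knockdown lines are compared with the same control library. The p-values therefore measure only the spread between these 2 lines, and a difference of the control culture from other cultures cannot be told apart from an effect of the knockdown. In bulk RNA, fewer cells that express a gene and less RNA per cell cannot be told apart either.

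RBM15, the target of both shRNAs, had 80.2 CPM in the control, 43.7 in replicate 1 and 40.7 in replicate 2. The fitted log2 ratio was -0.93 (SE 0.23, edgeR adjusted p = 0.091, lower in 2 of 2 lines), which did not pass the limit. Among 12 megakaryocytic and erythroid markers 10 had enough reads to test, while GP9 and PF4 had 5 reads or fewer in each library. The most abundant was ITGA2B, the platelet integrin alpha chain, with 919 CPM in the control, 476 in replicate 1 and 607 in replicate 2. GATA1, a transcription factor of the lineage, had 71.7, 64.2 and 66.0 CPM. Other markers of this list moved more, 4 higher and 3 lower by 1.2-fold in both lines: PPBP, a platelet chemokine, had 2.38, 6.12 and 56.9 CPM, ITGB3, the integrin beta chain, 6.28, 17.9 and 51.8, TAL1, a transcription factor, 236, 347 and 399, and RUNX1, another transcription factor, 128, 57.6 and 70.5. Summed over the tested markers, CPM was 1427, 1059 and 1318. Of 9 markers of other cell types, 8 were tested, and their sum was 77.0, 64.2 and 57.1 CPM. Nearly all of it was EPCAM, an epithelial adhesion gene, with 74.9 CPM in the control, and the other 7 tested markers had less than 1 CPM there. By gene the direction was the opposite of the sum, with 5 of the 8 higher by 1.2-fold in both lines and a median log2 ratio of 1.97, at low counts such as 13, 29 and 205 reads for CD14 and 11, 82 and 50 for ALB. No marker of either list was at 0 in any library, and none was called by edgeR or DESeq2 at an adjusted p under 0.01, while 5 of each list had an unadjusted p under 0.05 by edgeR. Of all tested genes 18.8% reached that unadjusted limit, and 27.7% were higher and 23.7% lower by 1.2-fold in both lines.

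The members as a whole were strongly expressed genes that shifted little. Their 89 genes took 743752 reads in the control, 627261 in replicate 1 and 836575 in replicate 2. These were 1.40% (95% Wilson interval 1.394 to 1.400), 1.51% (1.503 to 1.510) and 1.59% (1.591 to 1.598) of the reads on bins, intervals that cover counting error only. With TMM factors the sum over tested members was 15030, 14011 and 16034 CPM, so replicate 1 was above the control by share of reads and below it by normalized counts. Of the 89 genes, 84 had 30 or more reads over the 3 libraries and were tested. The 5 left out were 4 isoform genes of complex IV and the read-through gene ATP5MF-PTCD1, with a median of 9 reads over the 3 libraries together.

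No member was called by edgeR at an adjusted p under 0.01, against 0.346% of 24887 tested genes. At an adjusted p under 0.05, 1 member was called, NDUFA4L2, against 1.74% of genes. An unadjusted p under 0.05 was reached by 10 of 84 members (11.9%), against 18.8% of all genes. Of these members 3 were lower and 7 higher, where 9.17% of all genes were lower and 9.61% higher at this limit. DESeq2 at an adjusted p under 0.01 called 1 of 81 members, again NDUFA4L2, against 2.97% of 17649 genes. The median log2 ratio was 0.07 over the members and 0.02 over all tested genes. Among tested protein-coding genes with 1000 or more reads in sum the median was -0.14, and over the 79 members with such counts it was 0.04. Without a filter on low counts, where the median of all genes moved to 0.44, the members' median was -0.06, and those of complexes I and V were -0.09 and -0.05. With only genes of 300 or more reads in sum these medians were 0.18, 0.18 and 0.22, so the sign and size of medians this small changed with the filter.

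**Figure D1:**
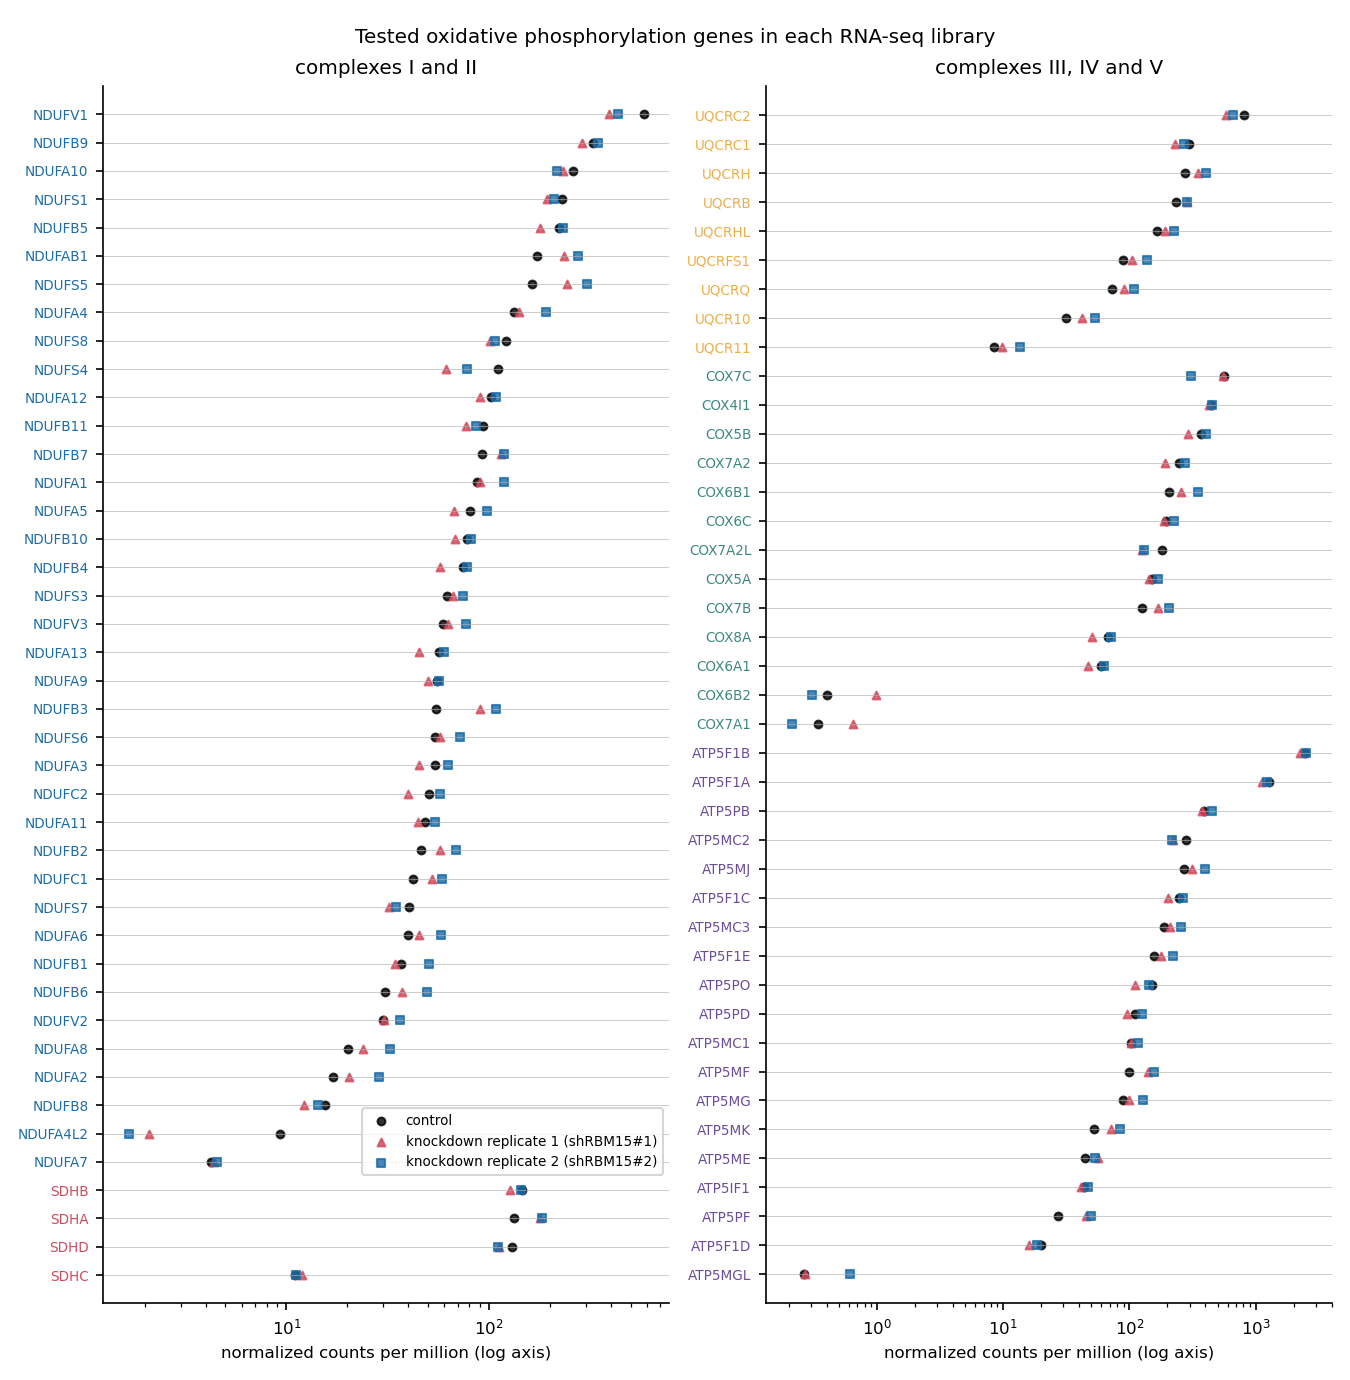
Normalized counts (CPM, log axis) of tested members in the control (circles), knockdown replicate 1 (triangles) and knockdown replicate 2 (squares), ordered within each complex by the control, with gene names coloured by complex. For most genes the 3 libraries lie close together next to the range between genes, from 2444 CPM for ATP5F1B to 0.263 CPM for ATP5MGL in the control, and NDUFA4L2 is the gene whose control value stands farthest above both knockdown lines.

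A fold of at least 1.2 in the same direction in both lines was found for 18 members higher (21.4%, against 27.7% of all tested genes) and 7 lower (8.33%, against 23.7%). The genes higher were NDUFAB1, NDUFB2, NDUFB3, NDUFB6, NDUFB7, NDUFC1, NDUFS5, SDHA, UQCR10, UQCRB, UQCRH, UQCRQ, COX6B1, COX7B, ATP5ME, ATP5MF, ATP5MK and ATP5PF. Those lower included NDUFA4L2, NDUFS4, NDUFV1, UQCRC2, COX7A2L and ATP5MC2. The share was also taken at 1000 or more reads in sum, where 18 of 79 members (22.8%) were higher against 13% of 9377 protein-coding genes, and 6 (7.59%) were lower against 28.8%. The counts rest on both lines: replicate 1 alone gave 21 members higher and 22 lower by this fold, and replicate 2 alone gave 36 higher and 10 lower. At 1.5-fold, 2.38% of members passed in each direction, NDUFB3 and ATP5PF higher and NDUFA4L2 among those lower, against 18.7% and 11% of all genes.

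The lines differed from each other in 1 way across most members. Of 84 members, 75 had a higher ratio in replicate 2 than in replicate 1, against 48.3% of all tested genes. The median log2 ratio of the members was -0.05 in replicate 1 and 0.18 in replicate 2, where the medians of all tested genes were within 0.01 of 0. Protein-coding genes with 1000 or more reads in sum also lay higher in replicate 2, with medians of -0.21 and -0.07, against -0.07 and 0.20 for the 79 members with such counts. The median absolute difference between the lines was 0.27 on the log2 scale for members and 0.35 for all tested genes. The latter include more genes with low counts, and this size was not compared among genes with 1000 or more reads.

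**Figure D2:**
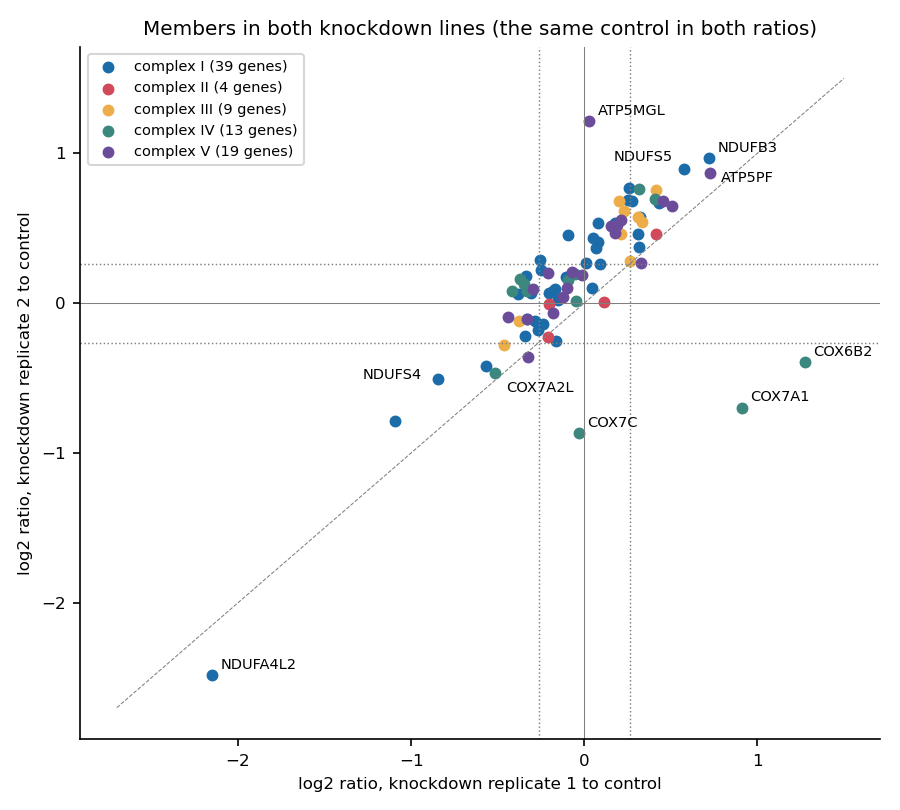
Log2 ratio to control of each tested member in knockdown replicate 1 (horizontal) and replicate 2 (vertical), coloured by complex, with dotted lines at 1.2-fold and a dashed line where both ratios are equal; both ratios use the same control library. Most points lie above the dashed line, NDUFA4L2 lies far below 0 on both axes, and COX7C, with the low-count genes COX6B2 and COX7A1, lies well below that line.

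Complex I, the NADH dehydrogenase, is the largest complex. Its 39 genes were all tested, and their summed CPM was 4025 in the control, 3609 in replicate 1 and 4298 in replicate 2. The median log2 ratio was 0.04 (-0.15 in replicate 1 and 0.18 in replicate 2), with 7 genes higher and 4 lower by 1.2-fold in both lines. Over all tested genes 27.7% were higher and 23.7% lower by this fold. Among protein-coding genes with 1000 or more reads in sum 13% were higher and 28.8% lower. Per length, the highest levels in the control were those of NDUFS5, an accessory subunit, at 277 and NDUFB7, an accessory subunit of the membrane arm, at 161, against a median of 25.4 for the complex. The lowest was NDUFA4L2 at 3.09. With the length of the canonical transcript in place of all exon bins, an alternative chosen after seeing the data, the order led with NDUFB9 and NDUFV1 and ended with NDUFA9.

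NDUFA4L2, a paralog of NDUFA4 that is known as a target of hypoxia signalling, lies at chr12:57628686-57634498 on the minus strand (GRCh37). It had 462 reads in the control, 94 in replicate 1 and 87 in replicate 2, or 9.34, 2.10 and 1.67 CPM. Both knockdown lines were far below the control and close to each other. The log2 ratio was -2.31 (SE 0.36, edgeR adjusted p = 0.0205, lower in 2 of 2 lines), or 4.44-fold lower in replicate 1 and 5.59-fold lower in replicate 2. Over the alternative settings with a test, its adjusted p ranged from 3.27e-06 without a filter on low counts to 0.0536 with only genes of 300 or more reads in sum. Of its control reads, 5.19% lay on bins shared with SHMT2, which unstranded reads do not separate. NDUFA4, the abundant paralog, now known mainly as a subunit of complex IV, had 133, 140 and 192 CPM. HIF1A, the oxygen-regulated transcription factor in the list of regulators, had 59.2, 82.0 and 113 CPM, and whether it had a part in the NDUFA4L2 values was not tested.

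NDUFS4, NDUFV1, NDUFS5 and NDUFAB1 are named after their values were seen. NDUFS4, an accessory subunit needed for a stable complex, had 110 CPM in the control, 61.4 in replicate 1 and 77.5 in replicate 2. NDUFV1, the core subunit that binds NADH and flavin, had 578, 390 and 432 CPM. Both knockdown lines lay below the control in these genes, and neither gene passed the limit by edgeR.

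On the other side, NDUFB3, a small accessory subunit of the membrane arm, had 54.9, 90.5 and 108 CPM and the largest increase of the complex among genes higher in both lines. The log2 ratio was 0.85 (SE 0.24, edgeR adjusted p = 0.129), which did not pass the limit. NDUFS5 had 163, 244 and 303 CPM, and NDUFAB1, the mitochondrial acyl carrier protein, had 173, 234 and 275 CPM. In each of these 3 genes both knockdown lines lay above the control, with replicate 2 higher than replicate 1. Genes of the same complex thus stood on both sides of the control, with NDUFS4 and NDUFV1 below it and NDUFB3, NDUFS5 and NDUFAB1 above it.

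Complex II, succinate dehydrogenase, is the only complex made entirely of nuclear genes and is also an enzyme of the citric acid cycle. Its 4 genes summed to 419 CPM in the control, 428 in replicate 1 and 449 in replicate 2, and their median log2 ratio was -0.02, which became -0.15 without a filter on low counts and 0.12 with only genes of 300 or more reads in sum. Per length, SDHD, a membrane anchor, at 66.7 and SDHB, the iron-sulfur subunit, at 54.8 were highest in the control, and SDHC, the other anchor, was lowest at 5.11. By canonical transcript length SDHB was ahead of SDHD. SDHA, the flavoprotein, had 133, 177 and 183 CPM, both lines above the control (log2 ratio 0.44, SE 0.22, edgeR adjusted p = 0.327). Its 3 annotated pseudogenes together had 1930, 1607 and 1873 reads against 6578, 7945 and 9546 of SDHA, so part of either count may come from the other sequence, which was not tested. SDHD had 130, 112 and 111 CPM (log2 ratio -0.22, SE 0.22, edgeR adjusted p = 0.638), a ratio that was -0.35 without a filter and -0.07 with only genes of 300 or more reads. SDHB had 145, 126 and 144 CPM and SDHC 11.1, 12.0 and 11.1, and neither passed 1.2-fold in either line.

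Complex III, the cytochrome bc1 complex, passes electrons from ubiquinol to cytochrome c. CYC1, its cytochrome c1 subunit, was not taken by the symbol rule and was counted with the electron carriers. Named after its values were seen, CYC1 had 309, 276 and 290 CPM in the control, replicate 1 and replicate 2. The 9 genes taken had the highest median log2 ratio of the 5 complexes, 0.44 (0.23 in replicate 1 and 0.54 in replicate 2). By 1.2-fold in both lines 4 were higher and 1 was lower. Over all tested genes 27.7% were higher and 23.7% lower by this fold. Among protein-coding genes with 1000 or more reads in sum 13% were higher and 28.8% lower. No gene of the complex had an unadjusted p under 0.05 by edgeR, against 18.8% of all genes, or an adjusted p under 0.01 by DESeq2. The sum over the complex did not follow the median. It was 1984 CPM in the control, 1884 in replicate 1 and 2170 in replicate 2, and the gene with the most CPM was among the lower ones.

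That gene was UQCRC2, a core subunit of the matrix side, with 808 CPM in the control, 586 in replicate 1 and 667 in replicate 2 (log2 ratio -0.37, SE 0.22, edgeR adjusted p = 0.408, and a ratio of -0.23 with only genes of 300 or more reads). UQCRC1, its core partner, named after its values were seen, had 296, 228 and 273 CPM. The other 7 members of the complex were above the control in both lines. UQCR10, a small membrane subunit, had 31.5, 42.1 and 53.3 CPM and the largest increase (log2 ratio 0.60, SE 0.27, edgeR adjusted p = 0.272). UQCRFS1, the Rieske iron-sulfur protein, had 89.3, 105 and 137 CPM. UQCR11, a small subunit with the lowest level per length of the complex in the control, 9.51, had 8.47, 9.72 and 13.6 CPM.

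UQCRH, the hinge protein that sits near cytochrome c, and UQCRHL, its near-identical copy, had the highest levels per length of the complex in the control, 184 and 297. UQCRH lies at chr1:46769370-46782448 on the plus strand and UQCRHL at chr1:16133664-16135843 on the minus strand (GRCh37). Their coding sequences, 273 bases each, were 98.5% identical in the reference, with 4 substitutions, G158A, G167A, G231A and G233A, UQCRH base first and counted from 1 at the start of the coding sequence. The stretch from coding base 138 to 167 is shown because it holds the first pair of these differences, in capitals.
UQCRH: ccgggagcggctagagctctGtgatgagcG
UQCRHL: ccgggagcggctagagctctAtgatgagcA
UQCRH had 278, 350 and 406 CPM and UQCRHL 165, 191 and 228 CPM in the control, replicate 1 and replicate 2. With so few differences, how the reads were divided between these genes cannot be judged from the counts, and their values are not independent of each other. Without UQCRHL, an alternative chosen after seeing the data, the median log2 ratio of the members was 0.06.

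Complex IV, cytochrome c oxidase, reduces oxygen, and several of its subunits come as pairs of genes of which 1 is restricted to certain tissues. Of its 17 genes 13 were tested. Their median log2 ratio was -0.02 (-0.05 in replicate 1 and 0.08 in replicate 2, and 0.05 with only genes of 300 or more reads in sum), and the sum was 2609, 2441 and 2647 CPM. COX7C and COX5B, both structural subunits, had the highest levels per length in the control, 270 and 240, while by canonical transcript length COX4I1 was second. COX7C differed between the lines, as did the low-count genes COX6B2 and COX7A1: it had 27754 reads in the control, 24573 in replicate 1 and 16043 in replicate 2, or 561, 549 and 307 CPM. Replicate 1 was slightly below the control and only replicate 2 was lower by 1.2-fold, and the fit gave a log2 ratio of -0.39 (SE 0.32, edgeR adjusted p = 0.553).

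COX7B, a small structural subunit, had 127, 168 and 204 CPM and the largest increase among genes higher in both lines (log2 ratio 0.56, SE 0.24, edgeR adjusted p = 0.26). COX7A2L, which takes part in joining complexes III and IV into supercomplexes, had 180, 126 and 130 CPM and was the only tested gene of the complex lower by 1.2-fold in both lines (log2 ratio -0.49, SE 0.22, edgeR adjusted p = 0.268). COX4I1, the main regulatory subunit, had 443, 428 and 447 CPM, within 1.2-fold of the control in both lines. COX6A1 had 59.0, 47.0 and 62.3 CPM, but its 7 pseudogenes had 1282, 953 and 1534 reads against 2922, 2102 and 3253 of its own.

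The tissue-restricted partners were almost silent in all 3 libraries. COX4I2, a lung and hypoxia form, had 0, 5 and 4 reads, COX6A2, a heart and muscle form, 4, 9 and 3, and COX8C, a testis form, 0, 2 and 0. A count of 0 allows up to 3 reads, and no fold is given for these genes. COX7B2 had 4, 2 and 5 reads, COX7A1, a muscle form, 17, 29 and 11, and COX6B2, a testis form, 20, 44 and 16. Per length, the ubiquitous partners in the control were at 85.9 for COX4I1, 47.0 for COX6A1, 206 for COX6B1, 119 for COX7A2, 38.9 for COX7B and 188 for COX8A. No restricted form reached a level of 1 in any library.

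**Figure D3:**
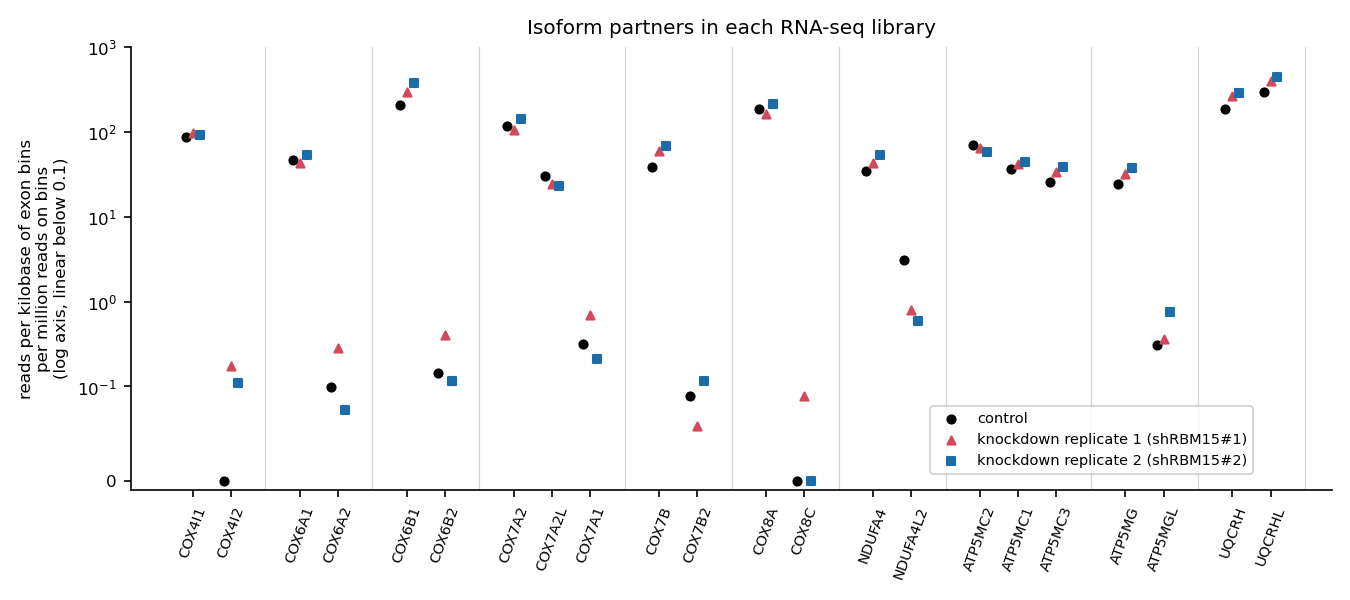
Level per length (CPM without TMM factors per kilobase of exon bins; log axis, linear below 0.1) of genes with isoform partners in the control, knockdown replicate 1 and knockdown replicate 2. In the control the ubiquitous forms of complex IV lie between 38.9 (COX7B) and 206 (COX6B1), and the restricted forms lie below 1 in all 3 libraries.

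Complex V, the ATP synthase, held the member with the highest level per length, ATP5F1B. Its 20 genes, 19 of them tested, summed to 5993 CPM in the control, 5650 in replicate 1 and 6469 in replicate 2, and their median log2 ratio was 0.09 (-0.01 in replicate 1 and 0.21 in replicate 2). ATP5F1B, the catalytic beta subunit, had the highest level per length of all members in the control, 1002, and ATP5F1A, the alpha subunit, followed in the complex at 169, while by canonical transcript length ATP5MC2 was second. ATP5F1B had 2444, 2245 and 2516 CPM and ATP5F1A 1278, 1129 and 1218, so in both genes the libraries differed by less than 1.2-fold from the control. The lowest level was that of ATP5MGL, a copy of ATP5MG, at 0.306, with 13, 12 and 32 reads, and by canonical transcript length that of ATP5MF-PTCD1. ATP5IF1, the inhibitor that stops the enzyme from running backwards, named after its values were seen, had 44, 41 and 47 CPM.

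ATP5PF, coupling factor 6 of the stalk, had 27.4 CPM in the control, 45.4 in replicate 1 and 50.0 in replicate 2. Both lines were above the control and close to each other (log2 ratio 0.80, SE 0.25, edgeR adjusted p = 0.159), the largest increase of the complex among genes higher in both lines. Of its control reads, 3.69% lay on bins shared with GABPA or JAM2. ATP5MC2, 1 of 3 genes for the membrane ring subunit c, had 278, 223 and 217 CPM (log2 ratio -0.34, SE 0.22, edgeR adjusted p = 0.432, and a ratio of -0.20 with only genes of 300 or more reads). Of the other genes for the same protein, ATP5MC1 had 103, 102 and 117 CPM, within 1.2-fold of the control in both lines, and ATP5MC3 had 187, 211 and 258, above the control in both. Per length, ATP5MC2 led in the control at 69.7, ahead of ATP5MC1 at 36.7 and ATP5MC3 at 26.0.

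Many of these genes are short, and length can move with RNA quality and library preparation. The median canonical transcript was 760.5 bases for tested members and 3273 for tested protein-coding genes. For the 51 members under 1000 bases the median log2 ratio was 0.08, with 13 higher and 3 lower by 1.2-fold in both lines, and 934 protein-coding genes of that length also had a median of 0.08, with 29.3% higher and 21.9% lower. For the 33 longer members the median was 0.04, with 5 higher and 4 lower, against 0.03 for 15287 protein-coding genes, of which 28.9% were higher and 23% lower. In finer length classes the members' medians differed more. The median was 0.32 for 12 members up to 500 bases and also for 7 members from 2000 to 3000 bases. These were the highest medians, each against 0.05 for protein-coding genes. The lowest was -0.24 for 7 members from 1500 to 2000 bases, against 0.11. With the median of protein-coding genes of the same length class subtracted, an alternative chosen after seeing the data, the members' median was 0.02.

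Copies and neighbours matter for some members. Of the members, 50 had annotated pseudogenes, 189 in all, and in 3 members, NDUFV2, COX6A1 and SDHA, pseudogene reads came to at least 10% of the gene's own in the control. For NDUFV2, a core iron-sulfur subunit, the pseudogene had 844, 792 and 1100 reads against 1483, 1349 and 1887 of the gene. Over the members with pseudogenes the median was 0.629%. In 5 members at least 10% of control reads lay on bins shared with another gene: NDUFA1 (35.4%, RNF113A), UQCRQ (31.4%, GDF9), NDUFB11 (27.7%, RBM10), NDUFB6 (19.1%, SMIM27) and ATP5MK (10.6%, TAF5).

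Exon usage, the share of a gene's reads on each bin, was tested with edgeR on 1230 bins of 81 members. No bin of a member was called at an adjusted p under 0.05, against 0.0205% of 234192 bins of all genes. An unadjusted p under 0.05 was reached by 18 bins in 11 members, 1.46% against 1.45% of all bins, which is no more than the background, and no other tool was run on bins. The lowest adjusted p of a member, 0.368, was that of bin 9 of 12 in UQCRH, at chr1:46775593-46775716 (GRCh37). It had 284, 149 and 237 reads, or 2.06%, 0.952% and 1.12% of the gene's reads.

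Other genes of the pathway were taken as lists of 5 kinds, and edgeR at an adjusted p under 0.01 and DESeq2 called 0 genes in each of them. The counts of each list are to be read against the shares over all tested genes. Of all tested genes 18.8% had an unadjusted p under 0.05 by edgeR. By 1.2-fold in both lines 27.7% of them were higher and 23.7% lower. Of 50 assembly factors, the helpers that build the complexes, 48 were tested, while SCO2 and PET117 were not matched to the count files. An unadjusted p under 0.05 was reached by 11, the median log2 ratio was 0.07, and 12 were higher and 8 lower by 1.2-fold in both lines. NDUFAF1, needed for complex I, had 22.1, 38.1 and 56.2 CPM, the largest increase (log2 ratio 1.10, SE 0.31, edgeR adjusted p = 0.124). SDHAF4, which helps mature SDHA, had 14.6, 3.62 and 8.28 CPM, the largest decrease (log2 ratio -1.30, SE 0.45, edgeR adjusted p = 0.186).

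Among 17 electron carriers and genes of coenzyme Q synthesis, 2 had an unadjusted p under 0.05, none was higher and 5 were lower by 1.2-fold in both lines, and the median was -0.13. CYCS, cytochrome c, had 266, 293 and 362 CPM, and PDSS2, which makes the side chain of coenzyme Q, had 28.0, 12.9 and 16.0. The 15 regulators included 3 with an unadjusted p under 0.05, and 4 were higher and 3 lower by 1.2-fold in both lines, with a median of 0.02. ESRRA, a nuclear receptor that acts on respiratory genes, had 99.4, 41.3 and 63.4 CPM (log2 ratio -0.92, SE 0.28, edgeR adjusted p = 0.147). PPARGC1A, its coactivator, was scarce, with 19, 60 and 42 reads. The 7 membrane carriers of adenine nucleotides and phosphate had a median of -0.10, with 1 gene, VDAC3, a pore of the outer membrane, at an unadjusted p under 0.05 (198, 310 and 346 CPM). SLC25A5, an ADP and ATP exchanger, had 223, 171 and 194 CPM.

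The 13 subunits encoded in the mitochondrial genome stood apart from their nuclear partners. Their median log2 ratio was 2.12, with 2.78 in replicate 1 and 0.88 in replicate 2, and 11 were higher by 1.2-fold in both lines. Summed CPM was 1989 in the control, 8544 in replicate 1 and 2970 in replicate 2. MT-ND1, a core subunit of complex I and the largest increase, had 42.4, 504 and 122 CPM (log2 ratio 2.88, SE 0.72, edgeR adjusted p = 0.096). MT-CO1, with the most CPM in the control and replicate 2, had 580, 1342 and 626. MT-ND5, with the most CPM in replicate 1, had 180, 1565 and 442. Per length, MT-CO3, named after its values were seen, was highest in each library, at 612, 1043 and 629. Although 11 of 13 had an unadjusted p under 0.05, none was called by edgeR or DESeq2 at an adjusted p under 0.01. Replicate 1, where the sum was highest, was also the library with the largest share of reads on lines that name no gene, 32.0% against 23.2% in the control and 23.5% in replicate 2, and whether this share has a part in the mitochondrial values was not tested. For the nuclear members, leaving the mitochondrial genome out of the library size kept the median at 0.07.

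**Figure D4:**
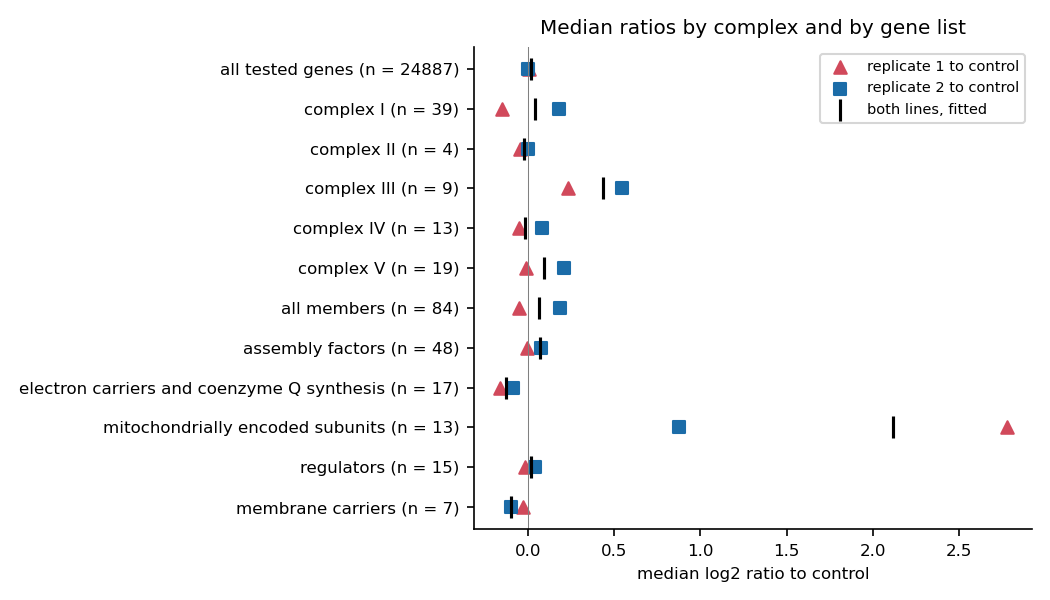
Median log2 ratio to control in knockdown replicate 1 (triangles), in replicate 2 (squares) and in the fit of both lines (bars) for all tested genes, each complex, all members and 5 lists of related genes, with the number of genes in brackets. The nuclear complexes lie between -0.02 and 0.44 in the fit, whereas the mitochondrially encoded subunits lie at 2.12 with the lines far apart.

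In the RIP-seq, RNA immunoprecipitated from cross-linked MEG-01 cells was sequenced, and 1515 sites that passed the authors' test were deposited with their read counts. For replicate 2 labelled normal IgG and replicate 1 labelled anti-RBM15, the antibody label conflicts with the arm in which that test placed the library, so no comparison between antibodies is made. Reads on the sites numbered 28387 in the library labelled normal IgG replicate 1, 610915 in normal IgG replicate 2, 28845 in anti-RBM15 replicate 1 and 807871 in anti-RBM15 replicate 2. These sums cover only the listed sites and are not library depths.

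A site was listed for 11 of 84 tested members (13.1%), against 5.99% of 16221 tested protein-coding genes. At an FDR under 0.01 in the deposited list there were 8 (9.52%), against 3.43%. Sites are found more often in strongly expressed genes, and most members are such genes: 50 members were among the top 10% of protein-coding genes by level per length in the control, and 7 of them had a site, where 22.1% of all genes in that class had one. Among the 31 members between the 50th and the 90th percentile 4 had a site, against 7.63% of genes, and none of the 3 members below did, against 1.45%. By complex, 6 members of complex I had a site, 1 of complex II, 2 of complex III, 2 of complex V and none of complex IV.

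In 9 of the 11 members the site was in the 3′ untranslated region, 10.7% of tested members against 2.48% of protein-coding genes. These shares were not compared within classes of level. Protein-coding genes with a site in this region had a median level per length of 41.2 in the control, against 2.52 for those without. The centre of the 9 member sites lay in the last exon of the canonical transcript. In NDUFB7 and NDUFS7 the site was annotated as intronic. The largest counts were those of ATP5F1B (60 and 1216 reads in the libraries labelled normal IgG replicates 1 and 2, and 69 and 1437 in those labelled anti-RBM15 replicates 1 and 2). Next came ATP5PB, the peripheral stalk subunit b, with 21, 856, 18 and 1295 reads in the same order, and UQCRC2 with 26, 661, 17 and 884. The smallest were those of NDUFB7, with 3, 80, 5 and 127, and NDUFS7, a core subunit of complex I, with 0, 125, 1 and 160.

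Other sites, with counts in that order, were those of NDUFA10 with 10, 169, 12 and 247 reads, NDUFA5 with 16, 251, 19 and 294, and NDUFB5 with 17, 200, 4 and 291, all accessory subunits of complex I. SDHA had 4, 115, 3 and 220 reads, and UQCRFS1 17, 241, 12 and 375. UQCRC2, with a site, was lower by 1.2-fold in both lines, and NDUFB7 and SDHA, also with a site, were higher. The median log2 ratio was -0.04 for members with a site and 0.08 for those without, and -0.19 and 0.06 for all tested protein-coding genes with and without one.

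**Figure D5:**
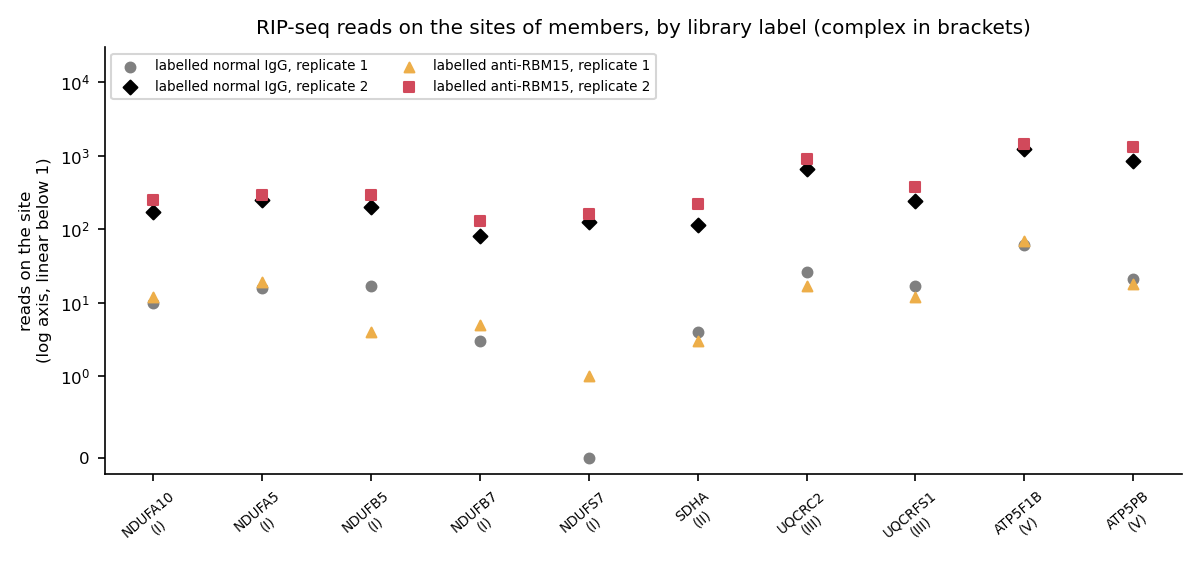
Reads on the RIP-seq sites of members (log axis, linear below 1), by the label and replicate of the 4 libraries, with the complex in brackets. At each site shown the libraries labelled normal IgG replicate 2 and anti-RBM15 replicate 2 lie above the other pair, from 80 and 127 reads for NDUFB7 to 1216 and 1437 for ATP5F1B; the sites were chosen by a test between these pairs and the reads are not scaled to depth, so this order follows from the selection.

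Member sites were searched for runs of T and for a methylation motif. In the central 201 bases on the strand of the site, TTTTT was found in 3 of 11 member sites (27.3%), against 56.8% of 431 sites in 3′ untranslated regions, where most member sites lie, and 27.7% of 1287 sites with a strand, and the difference was not tested. GGACT, a form of the motif for methylation of adenosine, was found in 2 of 11 (18.2%), against 13.0% and 9.25%. The 3 sites with TTTTT were those of NDUFA5, UQCRC2 and ATP5F1B, and windows from them are shown, with the longest run of T of the whole site in capitals. NDUFA5 is at chr7:123181814-123181843 on the minus strand, UQCRC2 at chr16:21994575-21994604 on the plus strand and ATP5F1B at chr12:57032035-57032064 on the minus strand (GRCh37), each in the 3′ untranslated region.
NDUFA5: tacatcatttaaTTTTTTaagttatcctga
UQCRC2: atatcatttgtcTTTTTTccagtgaggtaa
ATP5F1B: ccaaaaagcttcaTTTTTctgtgtaggctg

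Promoters of the members were searched for motifs of 4 factors, which the symbol rule did not use. RefSeq promoters of 300 bases around the start site (GRCh38) were matched for 70 members, and short motifs were searched on both strands. GCGCATGCG, the core of the NRF1 motif, was found in 10 members (14.3%), against 2.76% of 14984 promoters of protein-coding genes and 2.10% of all 27305. CCGGAAG, an ETS motif bound by GABPA, was found in 20 (28.6%), against 14.5% and 10.7%. AAGATGGCG, a YY1 motif, was found in 8 (11.4%), against 2.84% and 1.85%, and AAGGTCA, bound by ESRRA, in 9 (12.9%), against 3.12% and 3.97%. At least 1 of the 4 was found in 33 of 70 members (47.1%), against 21.3% of protein-coding genes. These shares were not tested, and a match of letters is a description and not evidence of binding.

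ATP5PF, higher in both lines, held 3 of these motifs, shown in capitals on the gene's own strand. They lie on the minus strand of GRCh37, at chr21:27107467-27107496 for NRF1, chr21:27107404-27107433 for YY1 and chr21:27107378-27107407 for GABPA.
ATP5PF NRF1: ccactcaaagaGCGCATGCGtacagagcaa
ATP5PF YY1: taggcgaagaaAAGATGGCGgaggctgtgc
ATP5PF GABPA: gtgccaggggacCCGGAAGcacttaccctc
For comparison, NDUFS4, lower in both lines, held a YY1 motif just after its start site at chr5:52856479-52856508 on the plus strand. SDHD, whose values differed little, also held 3 of the motifs (NRF1, GABPA and ESRRA). SDHB held those of GABPA, YY1 and ESRRA, and NDUFS7 those of NRF1, YY1 and ESRRA. The NRF1 motif of SDHD is shown, at chr11:111957476-111957505 on the plus strand.
NDUFS4 YY1: ttgcctgcagcAAGATGGCGgcggtgtcaa
SDHD NRF1: cagctgtgtttGCGCATGCGcgacgggtgt
Whether members higher and lower differ in these motifs was not tested. Of the factors themselves, NRF1 had 13.6, 13.3 and 13.0 CPM, GABPA 36.2, 33.1 and 40.1 and YY1 125, 113 and 128. These values differed little between the 3 libraries, and of the factors whose motifs were searched only ESRRA passed 1.2-fold in both lines. GABPB1, another gene of the list of regulators, named after its values were seen, had 90.8, 66.0 and 68.5 CPM. It was lower by 1.2-fold in both lines (log2 ratio -0.43, SE 0.22, edgeR adjusted p = 0.328), which did not pass the limit.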

How the data were processed

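RNA-seq of 3 libraries and RIP-seq of 4 libraries of MEG-01 cells were used. The authors aligned the RNA-seq reads with STAR to GRCh37 and deposited 1 file of raw read counts for each library, by exon bin. Which program counted the reads is not stated in the sources used here. For the RIP-seq, the authors deposited read counts only for sites that passed their DESeq test, with the p-value and false discovery rate (FDR) of that test in further columns. The submitters' processing notes name CASAVA 1.8.4, Picard 1.126, STAR, HTSeq 0.6.0, DESeq, bedtools 2.17.0 and R 3.1.1. From the deposited exon table only bin positions were taken, 5 per-sample columns in it were not used, and the authors' columns of fold changes and p-values were not used, except the FDR as a stricter limit on sites. Lines that name no gene held 23.2%, 32.0% and 23.5% of all reads in the control, replicate 1 and replicate 2 and were left out.

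Bin counts were summed per gene and named by GENCODE annotation mapped to GRCh37. Genes with 30 or more reads over the 3 libraries were tested with edgeR 4.0.16 in R 4.3.3, with TMM factors of 0.931, 1.08 and 0.996, and with DESeq2 1.42.0 as an alternative. With 3 libraries, 1 residual degree of freedom remained. Exon usage was tested with diffSpliceDGE of edgeR at an adjusted p under 0.05. The test scripts were tested on simulated data. Sites were matched to genes by the gene identifier of the list. Genes named with values are those called and those with the 2 highest and the lowest level per length and the largest change each way in each complex, those with a site or a called bin, isoform partners, and the largest changes in each list; others are named as chosen after seeing their values. A gene that these rules pick is not reported here. The members and lists were chosen with earlier results of these data known.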

Additional observations from a re-analysis of the deposited data

Results flagged for a closer look

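In knockdown replicate 1, 32.0% of all reads were on the lines of the count file that name no gene, above the 23.2% of the control library.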

How the results depend on the processing

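Results were recomputed under the alternatives fixed for each of them, fewer for fold counts, exon bins and sites than for medians. The log2 ratios of the single genes recomputed kept their sign, but medians near 0 did not. Genes called after knockdown numbered 86 and became 191 with RLE size factors, 801 without a filter on low counts, 0 at a summed count of at least 300, 525 with DESeq2 and 432 at an adjusted p under 0.05. The share of called genes that were lower was 80.2%, against 72.3%, 65.7%, 62.5% and 78.4% with RLE, no filter, DESeq2 and the mitochondrial genome left out of the library size. Members called, 0 at first, became 1 with RLE, without a filter, with DESeq2 and at an adjusted p under 0.05, in each case NDUFA4L2. Its log2 ratio was -2.31 with RLE, -2.45 without a filter and -2.31 with DESeq2.

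Without a filter the median of all genes moved from 0.02 to 0.44, and that of the members from 0.07 to -0.06; at a summed count of at least 300 the members' median was 0.18. Complexes I and V turned from 0.04 and 0.09 to -0.09 and -0.05 without a filter and were 0.18 and 0.22 at a summed count of at least 300. The median of complex II, -0.02, was -0.15 without a filter and 0.12 at a summed count of at least 300, where that of complex IV turned from -0.02 to 0.05. Leaving out each knockdown replicate in turn gave medians from -0.04 to 0.18 for the members and from -0.042 to 0.079 for complex IV. Members at least 1.2-fold higher in the lines kept numbered 21 to 36, and those lower 10 to 22; at 1.5-fold there were 2 and 2. Called bins went from 48 to 23 with a summed count of at least 1, and to 3392 (18 of members) at a fold above 1.2 with an unadjusted p under 0.05. The median level per length of 34.7 became 36.7 over bins with a control read and 81.3 with canonical transcript lengths, the latter chosen after seeing the data, as were the length-class median, UQCRHL left out and members with low counts left out, none of which moved the members' median beyond the gap between the lines. For these results the cause was not tested. In all, 58 values of counts and medians moved by less than the spread between the lines or, for counts, by at most 1.5 times, and 65 values of single genes kept their side of the limit or moved by less than that spread; those of SDHD and ATP5MC2 without replicate 2 moved by more. Without a filter and at a summed count of at least 300, the log2 ratios of SDHD were -0.35 and -0.07, those of ATP5MC2 -0.47 and -0.20, and those of UQCRC2 -0.50 and -0.23.

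No paired analysis was possible because the labels pair no control with a knockdown line. Leaving out a line left 1 library on each side, which gives a value but no test. With 1 control library, the spread of the control was not measured. The 5 members with fewer than 30 reads were not tested.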
